A study of Mus musculus with 20 samples.

Results

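Transcripts of 10 enzymes and enzyme partners that write or erase DNA methylation and histone marks were followed in BV-2 microglia: the DNA methyltransferases Dnmt1 and Dnmt3a, the Dnmt1 partner Uhrf1, the 5-methylcytosine oxidases Tet2 and Tet3, the histone methyltransferase Ezh2, the histone demethylase Kdm6b, and the histone deacetylases Hdac1, Hdac5 and Hdac9. These 10 genes were taken by symbol from the 55487 genes of the count table, and all 10 passed the filter on low counts that left 12799 genes for testing. BV-2 is an immortalized microglial line derived from mixed brain cultures of C57BL/6 mice, and RNA was sequenced from 20 cultures in 4 groups of 5. Young cells were used at low passage, and aged cells were the same line after prolonged passaging. Cultures of each age were either untreated or given bacterial lipopolysaccharide (LPS) at 100 ng/ml for 6 hours. All 4 groups carried the WT genotype, each of 5 labelled batches held 1 culture of every group, and total counts per library ranged from 11371508 to 16829292. As a model the groups are limited to 1 line, in which age stands for time in culture of dividing cells. The study calls the 5 cultures of a group independent replicates. Its methods describe aged cells that were frozen after the long cultivation and then used as aliquots. Whether several long cultivations were run is not stated. Tests of aged against young cells thus measure the spread between cultures, and give no measure of the spread between separate cultivations.

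Dnmt1 copies CpG methylation to the new strand after replication and is brought to hemimethylated DNA by Uhrf1, whereas Dnmt3a places methyl groups on unmethylated sites. Tet enzymes oxidize 5-methylcytosine and so begin its removal. Ezh2 is the catalytic subunit of Polycomb repressive complex 2 and methylates lysine 27 of histone H3, and Kdm6b, also called Jmjd3, removes that mark and is a known target of inflammatory signalling in macrophages. Deacetylases remove acetyl groups from histones and other proteins: Hdac1, of class I, sits in large corepressor complexes, and Hdac5 and Hdac9, of class IIa, bind Mef2 transcription factors.

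Promoter stretches are shown because some members, though not all with related roles, moved in the same direction with LPS, as described further on. The RefSeq promoter table for GRCm38.p6, whose windows run from 250 bases before to 50 bases after a start site, held 14 windows of 8 of the 10 genes, all but Kdm6b and Hdac1. Every window was searched on both strands for the letters of an E2F site (TTTCCCGC or TTTGGCGC), of a kappaB site (GGGANTTCC or GGGGNTTCC) and of the cyclic AMP response element (TGACGTCA), none of which contains another. The E2F letters were in 1.56% of all 32851 windows, the kappaB letters in 3.34% and the cyclic AMP response element in 1.79%. Among the members, 1 of the 3 Dnmt1 windows and the Ezh2 window held the E2F letters, and no member window held the others. E2F factors are known for driving genes of DNA synthesis. No Uhrf1 window held the E2F letters. A match of letters does not show binding, and regulation through these sites was not tested. The 30 bases around each match are printed with the match in capitals: for Dnmt1 from chr9:20952574-20952603, minus strand, where the match begins 33 bases after the start site, and for Ezh2 from chr6:47595009-47595038, minus strand, where it begins 3 bases after the start site.
Dnmt1: gcgcggggcagcgTTTGGCGCgggctgtgc
Ezh2: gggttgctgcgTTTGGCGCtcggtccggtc

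CpG content, on which several members' proteins act, varied widely among the members' own promoters. The Tet2 window held 57 CpG, the 3 Dnmt3a windows 46, 47 and 18, the Ezh2 window 31, the Tet3 window 22 and the Hdac5 window 18. The 3 Dnmt1 windows held 33, 12 and 2, the 2 Uhrf1 windows 33 and 12, and the 2 Hdac9 windows 0 and 3. The median over all 32851 windows was 7. For the 4 genes with the largest LPS responses in young cells, the 100 bases before the start site are printed with each CpG in capitals, from the window with the most CpG. They come from chr3:133544391-133544490 (minus strand) for Tet2, chr17:56304213-56304312 (plus strand) for Uhrf1, chr11:102230173-102230272 (minus strand) for Hdac5 and chr12:34528890-34528989 (minus strand) for Hdac9.
Tet2: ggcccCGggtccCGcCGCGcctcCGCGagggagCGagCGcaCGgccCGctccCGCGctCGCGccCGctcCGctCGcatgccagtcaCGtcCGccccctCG
Uhrf1: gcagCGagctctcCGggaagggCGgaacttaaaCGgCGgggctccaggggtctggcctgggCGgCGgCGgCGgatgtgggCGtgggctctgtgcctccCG
Hdac5: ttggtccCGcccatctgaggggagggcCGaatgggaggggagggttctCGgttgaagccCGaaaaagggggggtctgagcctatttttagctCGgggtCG
Hdac9: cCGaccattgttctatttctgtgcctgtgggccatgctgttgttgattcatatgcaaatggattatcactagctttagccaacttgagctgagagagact
These stretches held 20 CpG in Tet2, 11 in Uhrf1, 6 in Hdac5 and 1 in Hdac9, beside a median of 3 in the same stretch of all windows. That median covers every window, not only the richest of each gene. Tet2 rose with LPS and the other three fell. DNA methylation was not measured in these samples, and no relation of CpG content to the changes was tested.

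All 20 libraries had the transcripts of a myeloid line: Csf1r, the receptor for colony-stimulating factor, lay at 562 to 998 CPM (counts scaled to library size) and the lysosomal protein Cd68 at 753 to 1409 CPM. The homeostatic microglial markers Cx3cr1 and P2ry12 reached at most 1.73 and 1.87 CPM. Summed over 6 markers each, neuronal, astrocytic and oligodendrocytic genes reached at most 0.69, 1.62 and 1.78 CPM. Of 6 endothelial markers, the receptors Flt1 and Kdr were at 308 to 405 and 66.1 to 112 CPM, and the other four had at most 5 counts in a library. In all 40 pairs of replicates the counts differed by more than sampling noise (chi-square per degree of freedom 2.42 to 26.8), and each library was counted once. Levels are CPM on library sizes scaled by the TMM method, and called means an adjusted p under 0.05 in edgeR's quasi-likelihood test over all 12799 genes. Scaling by library size alone moved the median log2 fold change of all genes by -0.22 for LPS in young cells and by -0.16 for LPS in aged cells, and by less than 0.1 in the other comparisons. The share of called genes that were higher then moved from 48.2% to 27.3% for LPS in young cells, from 50.6% to 28.4% for LPS in aged cells, from 48.3% to 70.1% for aged against young cells under LPS and from 64.4% to 81.3% for the difference of the responses.

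LPS changed the transcripts of nearly every member at both ages, and age changed none in untreated cells by this test. In young cells, 9 of the 10 genes were called after LPS, 4 higher (Tet2, Tet3, Kdm6b and Hdac1) and 5 lower (Dnmt1, Uhrf1, Ezh2, Hdac5 and Hdac9), where 64.6% of all genes tested were called, 31.2% higher and 33.5% lower. In aged cells all 10 were called, the same 9 in the same directions and Dnmt3a higher, making 5 higher and 5 lower, against 54.4% of all genes, 27.5% higher and 26.9% lower. The shares of all genes called were therefore large, and 9 or 10 of 10 genes is to be read against them. The members' median absolute log2 fold change was 1.03 in young and 0.58 in aged cells, beside 0.35 and 0.26 over all genes tested. Between aged and young LPS-treated cells, 6 of 10 genes were called, 5 higher in aged cells (Dnmt1, Uhrf1, Dnmt3a, Ezh2 and Hdac5) and 1 lower (Tet2), beside 29.0% of all genes, 14.0% higher and 15.0% lower. The LPS response itself differed with age for 4 genes (Dnmt1, Uhrf1, Ezh2 and Hdac5), each with a weaker decrease in aged cells, where 6.39% of all genes were called, 4.12% with a higher and 2.27% with a lower response in aged cells. In untreated cells, 0 of 10 genes were called between aged and young by edgeR and 0 by DESeq2, where 11.5% of all genes were called by edgeR, 3.71% higher and 7.81% lower. Of these 10 genes, 3 had an unadjusted p under 0.05, and 1, Tet3, was called with the batch as a block. The comparisons of LPS with untreated cells and of aged with young cells share their libraries and are not separate evidence of each other. The 10 genes, and the lists of related genes described below, were chosen with earlier results of these data known. Shares and changes above those of all genes can therefore come from that choice.

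**Figure D1:**
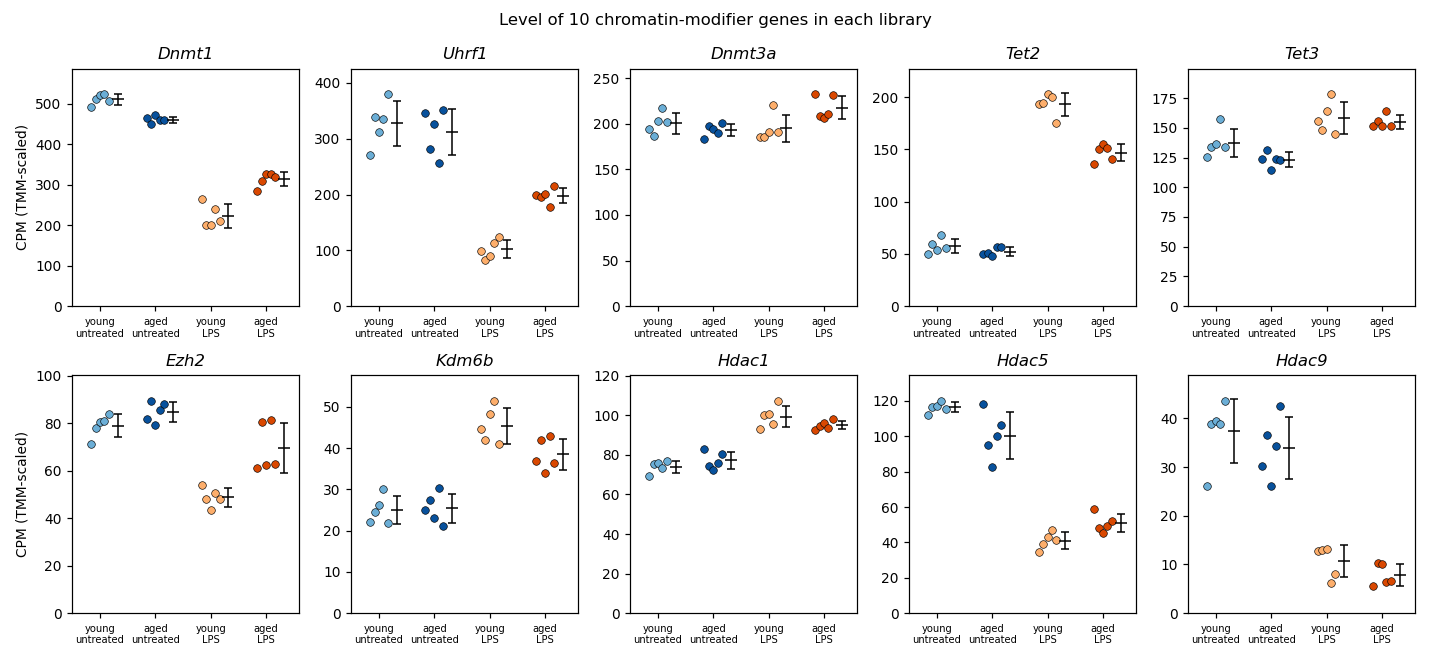
Level of each of the 10 genes in CPM (vertical axis, linear, from 0) in the 5 libraries of the 4 groups (horizontal axis). Points are libraries, drawn in order of batch, and the bar beside them is the mean with the SD. Tet2, Kdm6b and Hdac1 sit higher in all LPS-treated libraries than in any untreated one, and Dnmt1, Uhrf1, Hdac5 and Hdac9 sit lower. The share of all genes tested that separate in this way was not counted.

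Transcripts of both maintenance genes fell with LPS, and fell less in aged cells. Dnmt1, the maintenance methyltransferase (ENSMUSG00000004099, GRCm38 chr9:20907209-20959888, minus strand), stood at 491, 513, 522, 524 and 506 CPM in the young untreated libraries of batches 1 to 5 and at 463, 450.4, 471, 458 and 459 CPM in the aged untreated ones. With LPS it stood at 265, 199.7, 199, 239 and 209.9 CPM in young and at 285, 310.0, 326, 327 and 320.0 CPM in aged cells. The 4 groups did not overlap in any pair, and the young LPS-treated libraries were the lowest. Dnmt1 fell 2.30-fold with LPS in young cells, by 1.20 on the log2 scale (SE 0.06, adjusted p = 1.52e-13, n = 5 per group, edgeR), and 1.47-fold in aged cells (log2 fold change -0.55, SE 0.06, adjusted p = 1.02e-07, edgeR). The difference of the responses was 0.65 on the log2 scale (SE 0.09, adjusted p = 1.6e-04) and had the same sign in all 5 batches, from 0.19 to 0.86. In untreated cells the aged libraries lay below the young ones in every batch, with a log2 difference of -0.15 (SE 0.06), but the adjusted p was 0.12. In these bulk samples, fewer cells with a transcript and less of it per cell cannot be told apart.

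Uhrf1 (ENSMUSG00000001228, chr17:56303321-56323486, plus strand), which reads hemimethylated CpG and recruits Dnmt1, followed the same course with larger steps. Its level was 271, 339, 312, 335 and 380.1 CPM in young untreated libraries and 346, 282, 326, 257 and 351 CPM in aged untreated ones, 2 ranges that overlapped almost fully. With LPS it was 98.9, 83.3, 90.7, 114 and 123 CPM in young and 200.1, 195, 201, 177 and 216 CPM in aged cells. All aged LPS-treated libraries thus lay above all young ones and below all untreated ones. Uhrf1 fell 3.21-fold in young cells (log2 fold change -1.68, SE 0.11, adjusted p = 3.40e-12) and 1.58-fold in aged cells (-0.66, SE 0.10, adjusted p = 1.10e-05), both by edgeR. Under LPS it was 1.94-fold higher in aged than in young cells, and the log2 difference of the responses, 1.02 (SE 0.15, adjusted p = 2.5e-04), was the largest among the 10 genes. It ranged from 0.66 to 1.5 over the 5 batches.

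Genes of DNA replication moved with Dnmt1 and Uhrf1. Of 26 such genes (Mcm, Gins and Cdc families, Pcna, Ccne1, Ccne2, Rrm2 and others), 25 were lower with LPS in young cells and 23 in aged cells, and 23 were higher in aged than in young LPS-treated cells. Over all genes tested, 33.5% were lower with LPS in young and 26.9% in aged cells, and 14.0% were higher in aged LPS-treated cells. Between aged and young untreated cells 0 were called by edgeR and 0 by DESeq2, and 2 had an unadjusted p under 0.05. Of all genes tested, edgeR called 11.5% in that comparison. Their summed level was 3659 to 4423 CPM in young untreated, 3763 to 4338 CPM in aged untreated, 2055 to 2404 CPM in young LPS-treated and 2764 to 3163 CPM in aged LPS-treated libraries. The LPS-treated libraries of both ages lay below all untreated ones, and the young below the aged. For 18 of the 26 genes the decrease was weaker in aged cells, beside 4.12% of all genes called with a higher response in aged cells. The largest differences were in Cdc6, which loads the replicative helicase (1.05, SE 0.18, adjusted p = 9.3e-04, edgeR), and Rrm2, a subunit of ribonucleotide reductase (0.89, SE 0.15, adjusted p = 8.9e-04). The part of this shift in the values of Dnmt1, Uhrf1 and Ezh2 was not tested.

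Dnmt3a, a de novo methyltransferase (ENSMUSG00000020661, chr12:3806007-3914443, plus strand), changed little. It was at 194, 187, 203, 217 and 202 CPM in young untreated, 184, 198, 195, 189 and 201 CPM in aged untreated, 185, 186, 191, 220.0 and 191 CPM in young LPS-treated and 232, 208, 206, 210.1 and 231 CPM in aged LPS-treated libraries. The young groups overlapped almost wholly, and the aged LPS-treated libraries lay just above the aged untreated ones. The LPS response was -0.04 on the log2 scale in young cells (SE 0.05, adjusted p = 0.50) and 0.17 in aged cells (SE 0.05, adjusted p = 0.0094, edgeR), and the difference of these responses did not pass (0.21, SE 0.08, adjusted p = 0.10). Scaling by library size alone ended the call in aged cells (adjusted p = 0.88) and made one in young cells, where the log2 fold change became -0.26, so both calls of Dnmt3a depend on the scaling, while neither sign changed. Without batch 1 the call in aged cells was lost as well (adjusted p = 0.093). Aged exceeded young LPS-treated cells by 0.16 (SE 0.05, adjusted p = 0.028), a call lost when batch 1, 2, 3 or 5 was left out, with adjusted p between 0.055 and 0.15. The overlapping antisense gene Dnmt3aos had at most 19 counts in a library.

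Of the oxidases, Tet2 rose strongly with LPS and Tet3 little. Tet2 (ENSMUSG00000040943, chr3:133463679-133545139, minus strand) was at 50.3, 59.1, 53.7, 68.0 and 55.7 CPM in young untreated and 49.7, 51.2, 47.9, 56.4 and 56.4 CPM in aged untreated libraries. With LPS it reached 193, 195, 203, 201 and 175 CPM in young and 136, 151, 155, 151 and 141 CPM in aged cells. The LPS-treated libraries lay far above the untreated ones, and all young LPS-treated libraries lay above all aged ones. Tet2 rose 3.37-fold in young cells (log2 fold change 1.75, SE 0.07, adjusted p = 1.43e-15) and 2.81-fold in aged cells (1.49, SE 0.07, adjusted p = 3.99e-14), the largest increase among the 10 genes at both ages. Under LPS it was lower in aged than in young cells by 0.40 on the log2 scale (-0.40, SE 0.07, adjusted p = 1.1e-04), with -0.50 to -0.31 over the 5 batches. The difference of the responses, -0.26 (SE 0.10), was negative in 5 of 5 batches but did not pass (adjusted p = 0.12).

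Tet3 (ENSMUSG00000034832, chr6:83362373-83459084, minus strand), which carries a DNA-binding CXXC domain that Tet2 lacks, changed little. Its values were 125, 134, 137, 157 and 134 CPM in young untreated, 124, 132, 114, 124 and 123 CPM in aged untreated, 155, 148, 164, 178 and 144 CPM in young LPS-treated and 151, 156, 151, 164 and 152 CPM in aged LPS-treated libraries. The young groups overlapped through 1 untreated library, and the aged groups did not. Tet3 rose by 0.20 on the log2 scale in young (SE 0.06, adjusted p = 0.0056) and by 0.33 in aged cells (SE 0.06, adjusted p = 7.7e-05, edgeR). With library sizes alone the young value turned to -0.02 and was no longer called. In untreated cells Tet3 was lower in aged than in young cells in all 5 batches, by -0.35 to -0.01, with a mean log2 difference of -0.16 (SE 0.06), which passed with the batch as a block (adjusted p = 0.042) and not without it (adjusted p = 0.099).

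Of the 2 members that act on methylation of H3K27, Ezh2, which sets it, fell with LPS, and Kdm6b, which removes it, rose. Ezh2 (ENSMUSG00000029687, chr6:47530139-47595341, minus strand) was at 71.2, 78.1, 80.4, 81.2 and 84.0 CPM in young untreated and 82.0, 89.4, 79.2, 85.6 and 88.2 CPM in aged untreated libraries. With LPS its values were 54.0, 48.2, 43.3, 50.4 and 47.9 CPM in young and 61.1, 80.7, 62.3, 81.3 and 62.8 CPM in aged cells. The young LPS-treated libraries were below all others, and the aged ones fell into 2 near the untreated level, from batches 2 and 4, and 3 lower ones. Ezh2 fell 1.62-fold in young cells (log2 fold change -0.70, SE 0.08, adjusted p = 8.58e-08) and 1.22-fold in aged cells (-0.29, SE 0.08, adjusted p = 0.0037), by edgeR. Under LPS it was 1.43-fold higher in aged cells (adjusted p = 4.8e-05). The difference of the responses (0.41, SE 0.11, adjusted p = 0.030) was positive in 4 of 5 batches and lost its call when batch 2, 3, 4 or 5 was left out, with adjusted p between 0.085 and 0.18.

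Kdm6b, the demethylase (ENSMUSG00000018476, chr11:69398508-69413675, minus strand), was at 22.0, 24.4, 26.3, 30.0 and 21.9 CPM in young untreated and 25.0, 27.3, 23.2, 30.3 and 21.2 CPM in aged untreated libraries, and at 44.8, 42.0, 48.3, 51.5 and 41.0 CPM in young and 37.0, 41.9, 34.0, 43.0 and 36.5 CPM in aged LPS-treated ones. All LPS-treated libraries lay above all untreated ones, and the 2 ages overlapped. It rose 1.83-fold in young (log2 fold change 0.87, SE 0.10, adjusted p = 8.55e-08) and 1.51-fold in aged cells (0.60, SE 0.10, adjusted p = 2.6e-05), by edgeR. Under LPS it was lower in aged than in young cells in all 5 batches, with a log2 difference of -0.24 (SE 0.10). That difference did not pass in edgeR (adjusted p = 0.068) but passed with the batch as a block (adjusted p = 0.0084) and in DESeq2 (adjusted p = 0.048). The difference of the responses did not pass (-0.27, SE 0.14, adjusted p = 0.30).

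Of the deacetylases, Hdac1 rose with LPS, and Hdac5 and Hdac9 fell. Hdac1, of class I (ENSMUSG00000028800, chr4:129516104-129542713, minus strand), was at 69.1, 75.2, 75.7, 73.6 and 77.0 CPM in young untreated, 82.8, 74.4, 72.5, 76.1 and 80.6 CPM in aged untreated, 92.9, 100.1, 101, 95.9 and 107 CPM in young LPS-treated and 92.6, 94.8, 96.4, 93.8 and 98.2 CPM in aged LPS-treated libraries. The LPS-treated libraries lay above all untreated ones, with no separation by age. Hdac1 rose by 0.42 on the log2 scale in young (SE 0.05, adjusted p = 6.35e-08) and by 0.30 in aged cells (SE 0.05, adjusted p = 1.4e-05), by edgeR.

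Hdac5, of class IIa (ENSMUSG00000008855, chr11:102194432-102230166, minus strand), was at 112, 117, 117, 120.0 and 116 CPM in young untreated and 118, 95.0, 82.8, 100.0 and 106 CPM in aged untreated libraries, and at 34.6, 38.9, 42.9, 47.2 and 41.3 CPM in young and 59.0, 48.2, 45.5, 49.2 and 51.9 CPM in aged LPS-treated ones. All LPS-treated libraries lay below all untreated ones, the ages overlapped under LPS, and the aged untreated libraries spread more widely than the young ones (SD 13.1 against 2.78 CPM). It fell 2.83-fold in young (log2 fold change -1.50, SE 0.09, adjusted p = 7.28e-13) and 1.98-fold in aged cells (-0.98, SE 0.09, adjusted p = 1.46e-09), by edgeR. The decrease was weaker in aged cells by 0.52 (SE 0.12, adjusted p = 0.011), with 0.32 to 0.70 over the 5 batches. Leaving out batch 2 or 5 ended this call (adjusted p = 0.11 and 0.056). Aged exceeded young LPS-treated cells by 0.31 (SE 0.09, adjusted p = 0.011), and leaving out batch 1, 2 or 5 ended that call (adjusted p between 0.051 and 0.058).

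Hdac9, also of class IIa (ENSMUSG00000004698, chr12:34047580-34917095, minus strand) and the member with the fewest counts (80 to 655 per library), was at 26.1, 38.9, 39.5, 38.8 and 43.6 CPM in young untreated and 30.1, 36.6, 26.1, 34.3 and 42.6 CPM in aged untreated libraries. With LPS it was at 12.8, 13.0, 13.1, 6.27 and 8.11 CPM in young and 5.62, 10.3, 10.1, 6.43 and 6.51 CPM in aged cells. Every LPS-treated library lay below every untreated one, and the 2 ages overlapped. Hdac9 fell 3.52-fold in young (log2 fold change -1.82, SE 0.20, adjusted p = 2.83e-08) and 4.35-fold in aged cells (-2.12, SE 0.20, adjusted p = 6.62e-09), by edgeR. In aged cells this was the largest change of any member. In young cells its place depended on the batches: without batch 4 its log2 fold change was -1.66, beside 1.81 for Tet2 and -1.72 for Uhrf1, and without batch 5 it was -1.67, beside 1.78 for Tet2 and -1.70 for Uhrf1. The difference of the responses did not pass (-0.30, SE 0.28, adjusted p = 0.63), and its SE was the widest among the members.

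**Figure D2:**
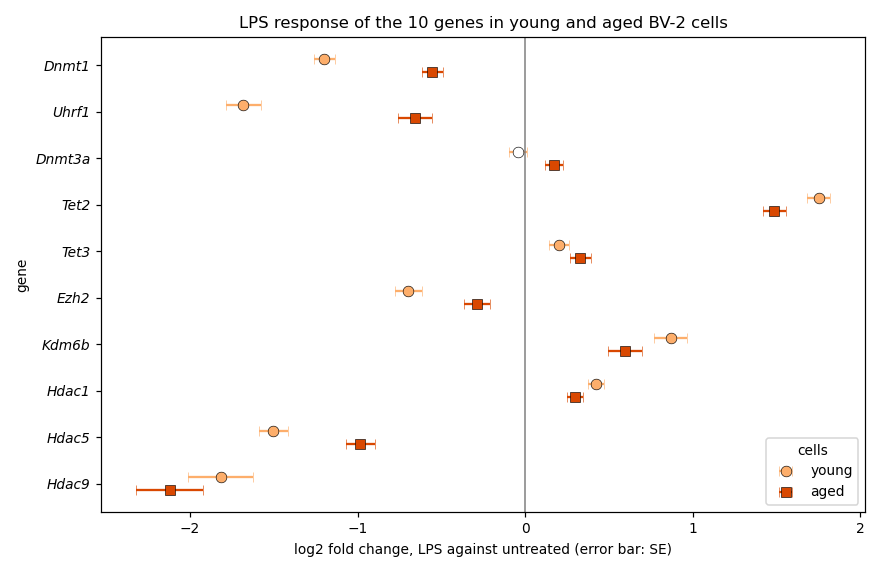
Log2 fold change of LPS-treated against untreated cells (horizontal axis, with the SE as bars) for each gene (vertical axis), circles for young and squares for aged cells. Filled symbols passed an adjusted p of 0.05 and the open one, Dnmt3a in young cells, did not. Dnmt1, Uhrf1, Ezh2 and Hdac5 lie nearer to 0 in aged cells.

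Set per kilobase of exon, the levels of different genes can be ranked. In young untreated cells the order by mean CPM per kilobase was Uhrf1 (76.8, SD 9.42, n = 5), Dnmt1 (69.3, SD 1.80), Hdac1 (21.5, SD 0.88), Hdac5 (13.3, SD 0.32), Dnmt3a (12.1, SD 0.69), Ezh2 (11.8, SD 0.72), Tet3 (8.23, SD 0.71), Kdm6b (3.58, SD 0.48), Tet2 (3.40, SD 0.40) and Hdac9 (2.55, SD 0.45). Uhrf1 and Dnmt1, Dnmt3a and Ezh2, and Kdm6b and Tet2 did not differ beyond their spread. In young LPS-treated cells Dnmt1 (30.2, SD 3.89) and Hdac1 (28.8, SD 1.59) were alike in CPM per kilobase, Tet2 (11.5, SD 0.65) stood level with Dnmt3a (11.7, SD 0.87), and Hdac9 (0.73, SD 0.22) was last. In aged LPS-treated cells Uhrf1 (46.5, SD 3.24) and Dnmt1 (42.5, SD 2.34) again led. Exon length counts every annotated exon of a gene, so isoforms that use fewer exons are set too low.

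Ratios within a library, free of the scaling between libraries, set pairs of enzymes beside each other. Per kilobase, the Tet2 level over the Tet3 level had a median of 0.41 in young untreated (range 0.39 to 0.44) and 0.42 in aged untreated libraries (0.39 to 0.45), 1.22 in young LPS-treated (1.11 to 1.30) and 0.92 in aged LPS-treated libraries (0.89 to 1.01). LPS thus brought Tet2 above Tet3 in all young libraries, and in aged cells the 2 genes were about level. Ezh2 over Kdm6b went from 3.33 (2.82 to 3.99) to 1.20 (0.93 to 1.26) in young and from 3.42 (2.94 to 4.33) to 1.91 (1.72 to 2.00) in aged cells. The 2 LPS-treated ages did not overlap in this ratio. Dnmt1 over Dnmt3a went from 5.70 (5.43 to 6.20) to 2.45 (2.35 to 3.23) in young and from 5.46 (5.14 to 5.69) to 3.36 (2.77 to 3.57) in aged cells, with an overlap of the LPS-treated ages through the young library of batch 1. Hdac5 over Hdac1 went from 0.61 (0.59 to 0.64) to 0.15 (0.15 to 0.19) in young and from 0.52 (0.45 to 0.56) to 0.21 (0.19 to 0.25) in aged cells, and in untreated cells the 2 ages did not overlap. These ratios are given as descriptions without a test.

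**Figure D3:**
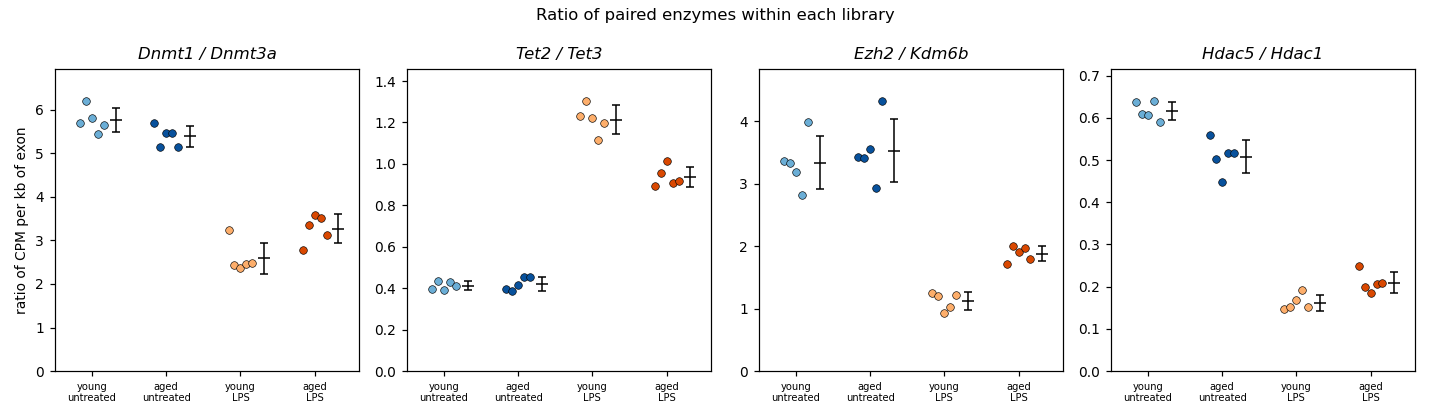
Ratio of the levels per kilobase of exon of 2 genes within each library (vertical axis, linear, from 0) in the 4 groups (horizontal axis). Points are libraries and the bar beside them is the mean with the SD. Tet2 over Tet3 is higher with LPS and the other 3 ratios are lower, and for Ezh2 over Kdm6b the aged LPS-treated libraries, at 1.72 to 2.00, lie above the young ones, at 0.93 to 1.26.

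The wider machinery of these marks was followed through lists of 124 other genes, of which 119 were tested. With LPS, 83 of them were called in young cells (27 higher and 56 lower) and 74 in aged cells (27 higher and 47 lower), that is 69.7% and 62.2%, beside 64.6% and 54.4% of all genes. Their median log2 fold changes were -0.13 and -0.08, beside -0.01 and 0.00 over all genes tested. Between aged and young cells, 43 were called under LPS (28 higher and 15 lower, 36.1%) and 12 untreated (4 higher and 8 lower, 10.1%), and the LPS response differed for 14 (12 higher and 2 lower, 11.8%), beside 29.0%, 11.5% and 6.39% of all genes. The untreated share is thus no higher than that of all genes. In untreated cells the batch as a block raised the count to 21, and dropping the filter on low counts lowered it to 7. Over all genes the same steps moved the calls from 1475 to 2204 and to 1214.

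Among the 13 other DNA methylation genes tested, LPS raised 4 and lowered 3 at each age, no larger a share than that of all genes, with the largest change in Dnmt3l, a catalytically inactive relative of the methyltransferases (log2 fold change 2.22, SE 0.10 in young and 1.96, SE 0.10 in aged cells, adjusted p = 6.0e-15 and 1.1e-13, edgeR). Mbd4, a glycosylase that repairs T:G mismatches from deaminated 5-methylcytosine, fell in aged cells (-0.80), and this decrease was weaker than in young cells by 0.77 (SE 0.13, adjusted p = 8.3e-04). Dnmt3b, the other de novo methyltransferase, was higher in aged than in young cells untreated (0.30, adjusted p = 0.016) and with LPS (0.62, adjusted p = 1.4e-05).

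Of 24 other Polycomb and H3K27 genes, 14 fell and 3 rose with LPS in young cells and 10 fell and 3 rose in aged cells. Over all genes tested, 64.6% were called in young cells (33.5% lower) and 54.4% in aged cells (26.9% lower). The called share of the list, both directions together, lay near that of all genes at both ages. The chromodomain protein Cbx6 fell by 1.75 on the log2 scale in young and by 0.99 in aged cells, and the response differed by 0.76 (adjusted p = 6.5e-05, edgeR). Pcgf5, a component of variant Polycomb repressive complex 1, rose by 1.44 in young and 0.88 in aged cells. Between aged and young LPS-treated cells, 10 of the 24 were higher and 3 lower, beside 14.0% and 15.0% of all genes tested.

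Of the 7 other deacetylases tested, LPS lowered 5 and raised 1 in young cells and lowered 5 in aged cells. Their median log2 fold changes, -0.60 and -0.34, stood beside -0.01 and 0.00 over all genes tested. Hdac4, a class IIa relative of Hdac5 and Hdac9, fell by 0.80 in young cells (adjusted p = 2.8e-07, edgeR), and Hdac10, of class IIb, fell by 0.46 in aged cells (adjusted p = 0.0011). Of 20 corepressor and Mef2 genes, 15 fell and 3 rose in young cells and 13 fell and 3 rose in aged cells. Over all genes tested, 33.5% fell and 31.2% rose in young cells, and 26.9% fell and 27.5% rose in aged cells. Mef2c, a partner of class IIa deacetylases, fell by 1.89 and 1.57 in young and aged cells, and Sap30, a subunit of the Sin3 complex that holds Hdac1, rose by 1.13 and 0.79.

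Other histone enzymes moved in both directions. Of 26 other lysine methyltransferases, 10 fell and 7 rose with LPS in young and 8 fell and 8 rose in aged cells, led by Kmt5c, which methylates lysine 20 of histone H4 (-2.01 and -1.41), and Setdb2, of the Setdb family of lysine 9 methyltransferases (1.45 and 0.95). Of 17 other lysine demethylases, 5 fell and 7 rose in young and 4 fell and 6 rose in aged cells, with Kdm2b, which binds unmethylated CpG, falling by 1.58 and 1.05. Of 12 acetyltransferases, 4 fell and 2 rose in young and 4 fell and 3 rose in aged cells. With 64.6% of all genes called after LPS in young cells and 54.4% in aged cells, the called shares of these 3 lists lay near those of all genes. In untreated cells the demethylase Kdm5b, which acts on lysine 4 of histone H3, was called lower in aged than in young cells (adjusted p = 2.1e-05), at a low level of 0.53 to 1.27 CPM in young and 0.057 to 0.20 CPM in aged libraries, where 3 counts correspond to 0.18 to 0.26 CPM. With LPS it was at 1.69 to 2.83 CPM in young and 0.077 to 0.36 CPM in aged libraries (adjusted p = 1.3e-07), again without overlap of the ages.

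**Figure D4:**
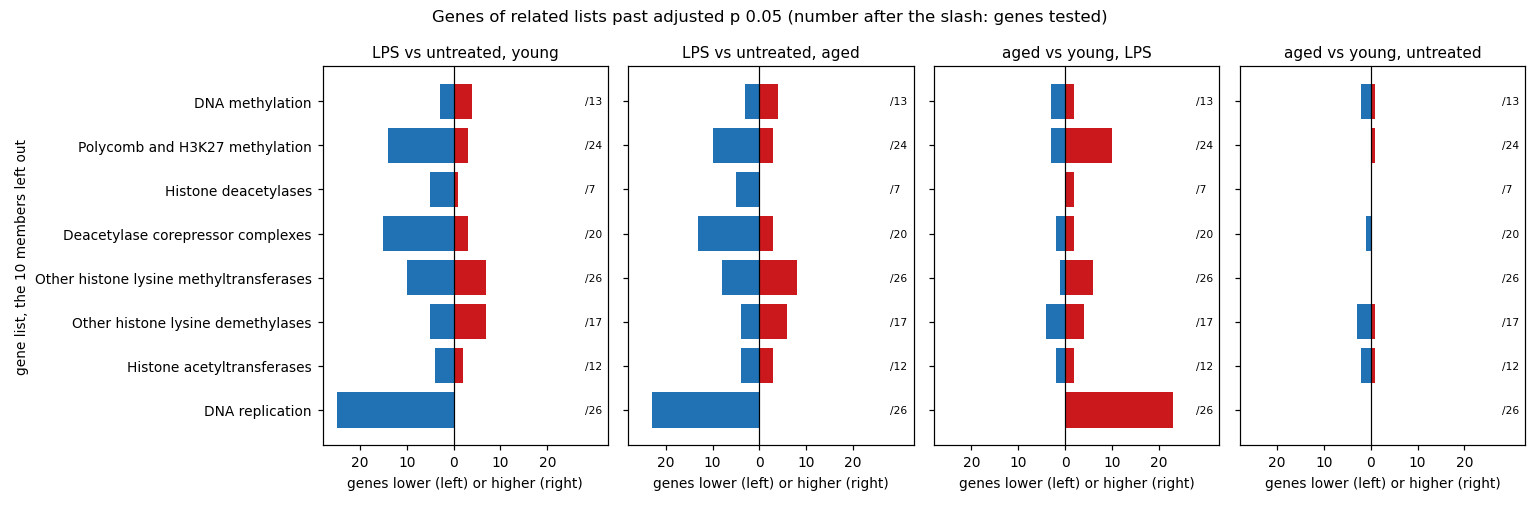
Number of genes called lower (blue, to the left of 0) and higher (red, to the right of 0) on the horizontal axis for 8 lists of related genes (vertical axis, the 10 members left out), with the number tested after the slash, in 4 comparisons. With LPS the DNA replication, Polycomb, deacetylase, corepressor and acetyltransferase lists have more genes lower than higher at both ages. In untreated cells few genes of any list differ with age.

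Members shared patterns across libraries. For each, the other tested gene with the highest Pearson correlation of log2 CPM over the 20 libraries was Topbp1 for Dnmt1 (r = 0.99), Mcm2 for Uhrf1 (0.99), Plagl2 for Tet2 (0.99), the uncharacterized 1700025G04Rik for Hdac5 (0.99), Rgl1 for Hdac1 (0.97), Pcf11 for Kdm6b (0.97), Lmnb1 for Ezh2 (0.97), 9330182L06Rik for Hdac9 (0.97), Wdfy3 for Tet3 (0.92) and Lonrf3 for Dnmt3a (0.80). Topbp1 takes part in replication initiation and Mcm2 is a subunit of the replicative helicase. These libraries share the LPS step, and that step enters each correlation. After the group means were taken off, Tet2 and Tet3 correlated at 0.69, Tet3 and Kdm6b at 0.76 and Tet2 and Kdm6b at 0.51 over the 20 libraries, whereas Dnmt1 and Uhrf1, at 0.95 over all libraries, correlated at 0.23. The pairs named were picked from all pairs of members. Uhrf1 and Hdac1 (0.52) and Dnmt3a and Tet3 (0.51) reached values like that of Tet2 and Kdm6b. Other pairs were negative, down to -0.45 for Dnmt3a and Hdac9. Depth, batch and base composition are shared within these libraries too, and the values are descriptions.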

How the data were processed

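The authors prepared stranded poly(A) libraries with an Illumina kit, sequenced them as paired ends, aligned the reads to GRCm38 with STAR 2.6.1d and counted them per Ensembl gene with featureCounts 1.5.1. They deposited raw counts, with no normalization. Settings for strand and multiple alignments are not given in the sources used here, so reads where a member overlaps an antisense gene cannot be assigned with certainty. The overlapping genes Dnmt3aos, Kdm6bos, Gm42567 (Tet2) and Mir8101 (Hdac5) had at most 19, 1, 6 and 13 counts in a library. Of the 55487 identifiers, 55227 were found in GENCODE's GRCm38 annotation, the source of symbols and exon lengths. Columns were matched to samples by name.

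The main test was edgeR 4.0.16 (quasi-likelihood F-test, R 4.3.3) on all 20 libraries with group as the only factor, TMM scaling and filterByExpr, with Benjamini-Hochberg adjustment over 12799 genes and a threshold of 0.05. For log2 CPM a prior count of 2 was added. Fold changes are edgeR's fitted values. The scripts were tested on simulated data. Alternatives were DESeq2 1.42.0, a replicate block, DESeq2 size factors, library sizes alone, other filters on low counts, a fit of only the groups compared, and leaving out each batch. Depth limits precision least for Dnmt1 and most for Hdac9, and 3 counts, the floor of detection, correspond to 0.18 to 0.26 CPM.

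The labels give replicate numbers as batches, which pair the libraries. The deviations of libraries with the same number correlated at 0.15 on average (-0.21 to 0.39, over 0.1 in 19 of 30 pairs). Untreated and LPS-treated libraries correlated at 0.12 to 0.37 in young and at 0.18 to 0.39 in aged cells. Young and aged libraries correlated at -0.084 to 0.25 untreated and at -0.21 to 0.27 with LPS. Matching by number was thus weaker between the ages, where the batch-wise age differences rely on it. Members and lists were chosen with earlier results of these data known. All members are named in the text, with, per list and comparison, only genes among the 3 largest called changes, and, per member, the gene most correlated with it.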

Additional observations from a re-analysis of the deposited data

Results flagged for a closer look

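The LPS response differed between young and aged cells for 4 members by edgeR's interaction test, by 0.65 for Dnmt1, 1.02 for Uhrf1, 0.41 for Ezh2 and 0.52 for Hdac5 on the log2 scale, aged minus young. In each of them the decrease was weaker in aged cells. The calls of Ezh2 and Hdac5 were lost when certain single batches were left out, with adjusted p up to 0.18 and 0.11 by edgeR. Those of Dnmt1 and Uhrf1 held in every alternative, with adjusted p up to 0.0081 and 0.0092.

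Of the 40 sets of 5 libraries (10 genes in 4 groups), 2 held a library far from the other four by Dixon's criterion, which chance gives in about 1 of 20 sets. They were Dnmt3a in the young LPS-treated library of batch 4, at 220.0 CPM, and Hdac9 in the young untreated library of batch 1, at 26.1 CPM.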

How the results depend on the processing

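Over the 10 members, 5 comparisons and the alternatives, 560 of 590 values kept their direction and their side of the threshold, 16 lost a call, 8 gained one and 6 changed sign. Except for Tet3 with LPS in young cells, the 6 were small uncalled values in the main test. Uhrf1 between untreated ages turned without batch 4 (0.0026, with -0.17 to 0.0026 over the batches left out). Kdm6b between untreated ages turned without batch 1 (-0.0067) and 2 (-0.0053, with -0.0067 to 0.082). With library sizes alone, Tet3 (0.051) and Hdac1 (0.017) turned between LPS-treated ages. Tet3 with LPS in young cells was called in the main test (0.20, adjusted p = 0.0056, edgeR). It became -0.017 and uncalled with library sizes alone. With library sizes alone Dnmt3a passed in the difference of the responses (adjusted p = 0.037). The cause was not tested. Between untreated ages the count of members called, 0, became 1 with the replicate block (Tet3) and 1 in the fit of only the groups compared (Dnmt1), and 0 to 2 when a batch was left out, with Dnmt1 and Hdac5 passing without batch 1 (adjusted p = 0.046 and 0.012). The difference of the responses kept 2 to 4 members when a batch was left out, 2 without batch 2 and 2 without batch 5 (Dnmt1 and Uhrf1). Beyond Tet3 and Kdm6b, the replicate block changed no other call of a member. Over all genes, leaving out batch 2 lowered the calls from 1475 to 548 between untreated ages and from 3717 to 2156 between LPS-treated ages, and the differences of the responses from 818 to 189, with 532 without batch 4 and 410 without batch 5. Fewer libraries enter those fits.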
